A study of Mus musculus with 10 samples.

Results

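The proteasome subunit genes described here are the protein-coding genes whose symbol begins with Psma, Psmb, Psmc, Psmd or Psme followed by a digit, 45 of the 55487 genes in each table and of the 21974 annotated as protein-coding. Their transcripts were measured by RNA-seq in 1 group of 3 replicates of E14, a line of mouse embryonic stem cells. The cells were grown in serum with LIF, a GSK inhibitor and a MEK1/2 inhibitor, and the labels name no further treatment or engineered allele. The series also holds 7 samples that map R-loops in the same line, in 5 groups labelled MapR, BisMapR, MapR GST-MNase, MapR NBSS and BisMapR RNaseA, which were not analysed here. With 1 group there is no contrast between conditions, so genes and gene lists are compared within these libraries. The labels do not say whether the replicates were separate cultures, so every SD and p-value measures only the spread between these samples, which may be technical.

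The proteasome degrades proteins that carry a ubiquitin chain. Its barrel-shaped core, the 20S particle, is a stack of rings of alpha and beta subunits, and 3 of the beta subunits cut peptides. The 19S regulatory particle caps the barrel, where non-ATPase subunits bind and trim the ubiquitin chain and a ring of ATPases unfolds the substrate and feeds it in. Interferon exchanges the cutting subunits for immunoproteasome versions that alter the peptides presented on MHC class I, and other activators can take the place of the cap. Each constitutive subunit enters a particle in the same number of copies as its neighbours.

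Totals were 11420425, 6467405 and 5787357 estimated counts for replicates 1, 2 and 3, of which the 45 genes took 0.524% (95% Wilson interval 0.520 to 0.528), 0.547% (0.541 to 0.553) and 0.562% (0.556 to 0.568). A limit of 3 counts, which a count of 0 allows, is worth 0.263, 0.464 and 0.518 CPM in replicates 1, 2 and 3, where CPM divides a count by the library total and ignores gene length. Intervals and floors cover counting error only. Replicate 3 stood apart from replicates 1 and 2. The biological coefficient of variation estimated by edgeR was 0.162 with all libraries and 0.0906 without replicate 3. It was 0.175 without replicate 1 and 0.206 without replicate 2. With all libraries and a smooth correction for length it was 0.138. Levels are given as TPM, a count divided by the effective transcript length and scaled to a fixed total, which allows comparison between genes. The 7 markers of embryonic stem cells all had a mean above 1 TPM and summed to 622, 519 and 452 TPM. Of the markers of other cells, 0 of 5 for primitive endoderm, 0 of 4 for mesoderm and neural cells, 0 of 2 for blood, 1 of 7 for fibroblast feeders (Thy1) and 1 of 4 for trophoblast (Tfap2c) had a mean TPM of at least 1. These lists summed to at most 0.83, 1.22, 0.44, 3.37 and 6.28 TPM in any replicate. The germ cell list went the other way, with 3 of 3 markers at a mean of at least 1 TPM. It summed to 23.48, 16.85 and 14.43 TPM in replicates 1, 2 and 3.

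All constitutive subunit genes taken by symbol were expressed, and nearly all at a level that few protein-coding genes reached. Of the 45 genes, 41 had a mean TPM of at least 1, beside 44.1% of all protein-coding genes. A mean TPM of at least 20 held for 34 of the 45, beside 6.64% of all protein-coding genes. The 4 genes under 1 were Psmb8, Psmb9, Psmb11 and Psme2b, each an inducible, tissue-restricted or duplicated member. Of the 31 constitutive subunits (Psma1 to Psma7, Psmb1 to Psmb7, the 6 ATPases and 11 non-ATPases), 30 had a mean of at least 20 TPM, and Psmb5 was the exception. The median log2(TPM + 1) over the constitutive subunits was 5.59, 5.26 and 5.23 in replicates 1, 2 and 3. The median of the 9683 expressed protein-coding genes, given in TPM and not in log2, was 7.11, 5.58 and 4.39 TPM. Every constitutive subunit lay above that median in each replicate. The constitutive subunits together held 0.856%, 0.882% and 0.909% of the TPM of nuclear protein-coding genes, 0.883% ± 0.026 (SD, n = 3). Over all genes, of whose TPM nuclear protein-coding genes hold a minor part, their share was 0.148% ± 0.017 (SD, n = 3).

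**Figure D1:**
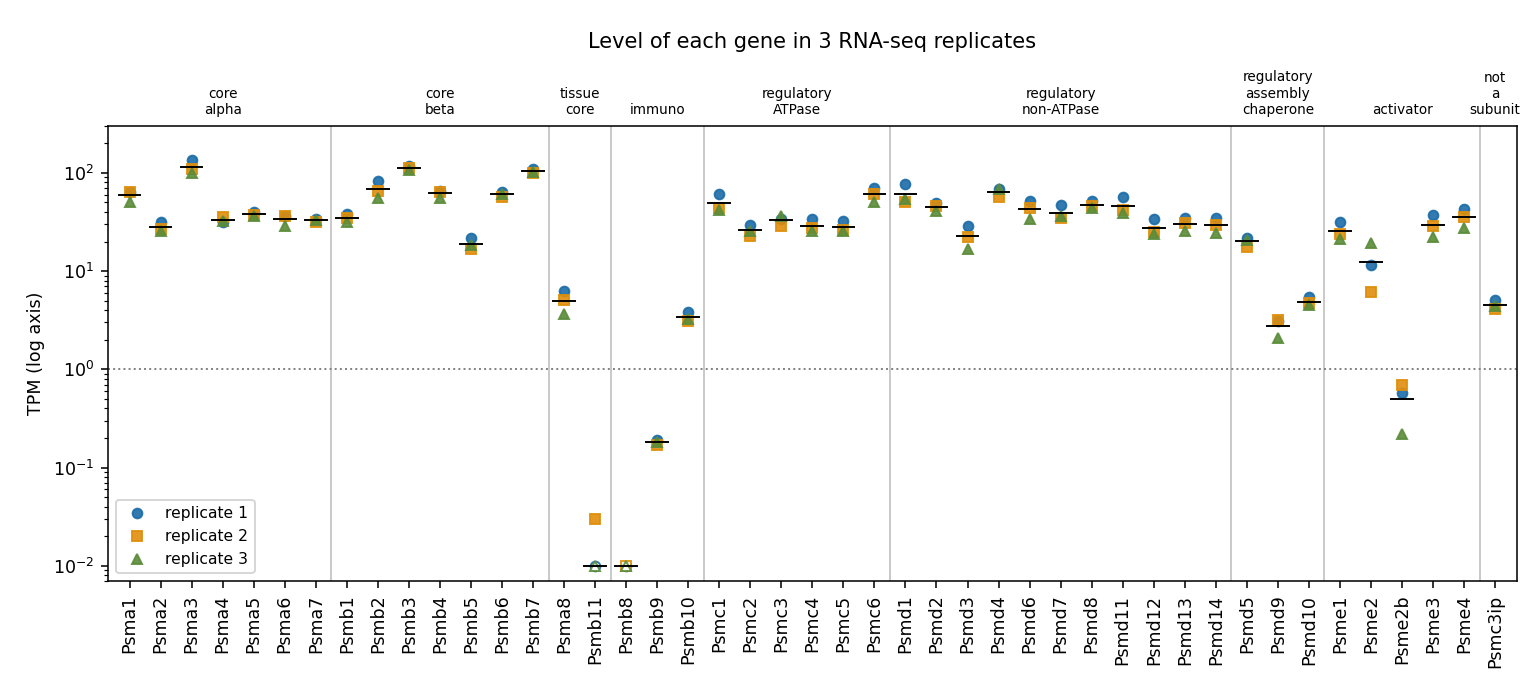
TPM (log axis) of each of the 45 genes in each RNA-seq replicate, grouped by role; black bars are means, the dotted line marks 1 TPM, and open symbols at the bottom edge of the axis stand for a listed TPM of 0. The 31 constitutive subunits have means between 19.04 and 114 TPM, while the immunoproteasome subunits lie at or below 3.84 TPM in every replicate.

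In the outer ring of the core, the 7 alpha subunits, which form the gate of the barrel, spanned 28.1 to 114 TPM in their means. Psma3 (ENSMUSG00000060073, chr12:70974621-70996347, plus strand) was the highest, at 134, 108 and 98.6 TPM in replicates 1, 2 and 3. Psma1 followed at 64.2, 63.6 and 50.7 TPM. The other 5 alpha genes lay close together, with means from 28.1 ± 3.29 for Psma2 to 38.0 ± 2.00 TPM for Psma5 (SD, n = 3). Psma4, Psma6 and Psma7 had means of 33.2 ± 2.38, 33.9 ± 4.27 and 32.9 ± 0.95 TPM (SD, n = 3), and their ranges over the replicates overlapped.

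The 7 beta subunits form the inner rings. Psmb3, a subunit without a cutting site, had 118, 112 and 106 TPM, and Psmb7, which carries the trypsin-like site, had 109, 98.9 and 102 TPM. Psmb2 and Psmb4, both without a cutting site, had means of 68.0 ± 13.9 and 61.7 ± 5.34 TPM (SD, n = 3). Psmb6, which carries the caspase-like site, had 64.1, 56.6 and 60.6 TPM. Psmb1, the remaining subunit without a cutting site, had 37.9, 35.1 and 31.9 TPM. Psmb5 (ENSMUSG00000022193, chr14:54614119-54618022, minus strand), which carries the chymotrypsin-like site, was lowest at 21.9, 16.9 and 18.4 TPM. No replicate of Psmb5 reached the lowest replicate of any other core subunit, so the 3 catalytic subunits stood at 3 separate levels per length, Psmb7 above Psmb6 above Psmb5.

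Within a replicate the highest core subunit exceeded the lowest 6.15-, 6.61- and 5.77-fold, 6.17 ± 0.42 (SD, n = 3). The SD of log2(TPM + 1) over the 14 core subunits was 0.80, 0.79 and 0.77, whereas a single core gene had a median SD of 0.12 over the replicates and at most 0.28. The unequal levels of the core genes were therefore larger than the spread between replicates. The median alpha level was 36.2, 36.4 and 33.0 TPM and the median beta level 65.4, 64.1 and 55.9 TPM, and these did not overlap. The difference of medians was -0.79 ± 0.05 (SD, n = 3) on the log2(TPM + 1) scale, lower for alpha. It came to -0.40 ± 0.05 with means in place of medians and to -0.21 ± 0.19 in CPM, which takes no account of length (both SD, n = 3).

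Several core genes share sequence with processed pseudogenes, copies of the spliced transcript elsewhere in the genome, so reads can be divided between them. Of the 45 genes, 16 shared no 50-base word of their transcripts with another gene and 17 shared at least 5%. Psmb5 shared 54.1% of its words with other genes, 46.8% with the pseudogene Gm3375. Gm3375 was assigned 163, 131 and 109 estimated counts beside 421, 221 and 262 for Psmb5. With those counts added, 30.8% of the joint total, Psmb5 would stand at 30.3, 27.0 and 25.9 TPM. Psmb5 then no longer lay below every other core gene in each replicate, since Psma2 had 31.9, 26.8 and 25.7 TPM. Psma3 shared 15.4% of its words, and the pseudogene Gm13835 was assigned 279, 231 and 162 counts beside 2843, 1599 and 1457. No other gene had pseudogene counts above 5% of the joint total. Over the 8 core genes that shared under 5% of their words, which leaves out Psma3, Psma4, Psma5, Psmb3, Psmb5 and Psmb7, the SD of log2(TPM + 1) was 0.51 ± 0.02 (SD, n = 3) in place of 0.79 ± 0.02. The genes left out include the highest of the core, Psma3, Psmb3 and Psmb7, and the lowest, Psmb5. Psmb7 shared its 9.26% with the overlapping gene Nek6 and with no pseudogene, and its counts were whole numbers in every library. With pseudogene counts added over all core genes the SD was 0.75 ± 0.02 (SD, n = 3). How much of the fall to 0.51 comes from divided reads was not tested.

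The 3 immunoproteasome subunits were far below the catalytic subunits they replace. Psmb8 (ENSMUSG00000024338, chr17:34197721-34201454, plus strand), the counterpart of Psmb5, had 0 counts in every library, which allows up to 0.104, 0.150 and 0.148 TPM at the floor of 3 counts per library. Psmb5 was at least 210-, 113- and 124-fold higher than Psmb8 taken at that floor in replicates 1, 2 and 3. Psmb8 was thus not detected at this depth.

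Psmb9 (ENSMUSG00000096727, chr17:34181987-34187764, minus strand), the counterpart of Psmb6, had 3, 2 and 1 counts. Per length it stood at 0.302%, 0.304% and 0.289% of Psmb6 in replicates 1, 2 and 3. The 95% exact Clopper-Pearson intervals were 0.0621 to 0.884, 0.0368 to 1.10 and 0.00732 to 1.62%. The deposited length of Psmb9 was 709, 759 and 433 nt, so the near-equal ratios depend on a length that differed between libraries. Over the summed libraries 6 counts of Psmb9 beside 2597 of Psmb6 gave 0.306% (95% exact Clopper-Pearson interval 0.112 to 0.666). Psmb10 (ENSMUSG00000031897, chr8:105935735-105938444, minus strand), the counterpart of Psmb7, was expressed, at 3.84, 3.10 and 3.29 TPM from 44, 28 and 31 counts. Per length it stood at 3.53% (2.56 to 4.75), 3.14% (2.08 to 4.55) and 3.22% (2.18 to 4.59) of Psmb7 by the same interval. The intervals of Psmb10 lay above those of Psmb9 in each library. The mean difference over the 3 pairs was -4.93, -4.80 and -4.86 on the log2(TPM + 1) scale, where the added 1 limits how low the silent members can fall.

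**Figure D2:**
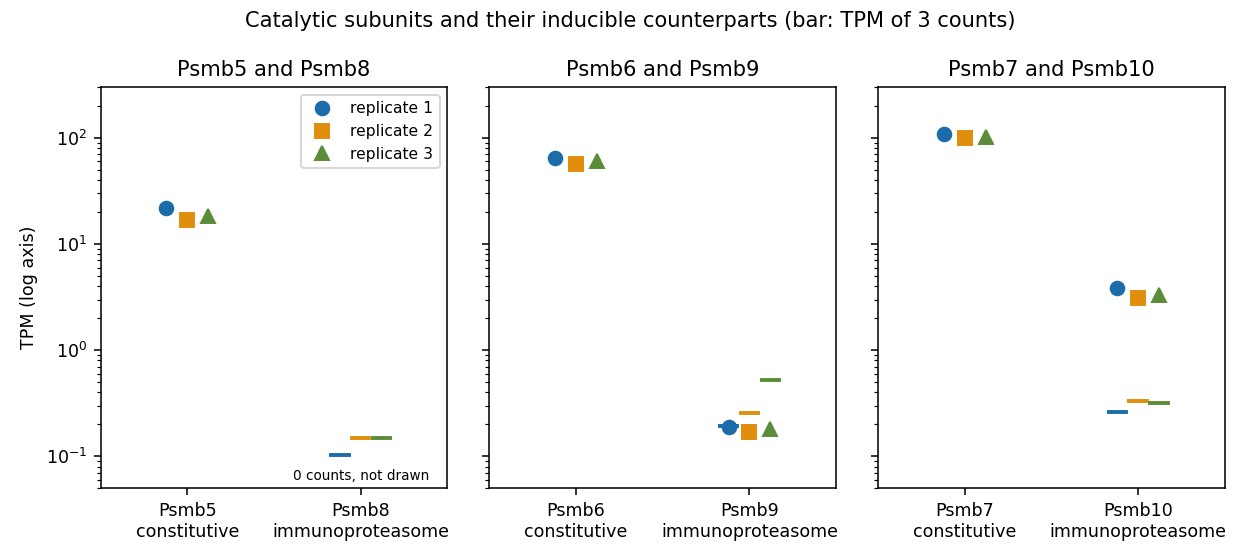
TPM (log axis) of each catalytic subunit and of its immunoproteasome counterpart by replicate; the short bars give the TPM that 3 counts of the counterpart would have. Psmb8 has 0 counts and no symbol, Psmb9 lies at or under its floor, and Psmb10 lies above its floor at 3.10 to 3.84 TPM.

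Genes that work with the immunoproteasome in antigen presentation gave its setting in these cells. Of 11 listed, 7 had a mean TPM of at least 1, beside 44.1% of all protein-coding genes. Tap1 and Tap2, the transporter that carries the peptides into the endoplasmic reticulum, had at most 0.15 TPM in any replicate, and Nlrc5, the transactivator of MHC class I genes, at most 0.12. B2m, the light chain of MHC class I, had 16.9, 12.8 and 14.7 TPM and the heavy chain gene H2-K1 10.3, 11.7 and 9.44 TPM. Irf1, a transcription factor of the interferon response, had a mean of 3.29 ± 0.57 TPM, and the receptor genes Ifngr1 and Ifngr2 1.56 ± 0.53 and 0.44 ± 0.27 TPM (SD, n = 3). Psmb9 and Tap1 lie head to head with their starts 211 bp apart on opposite strands, and neither reached 0.2 TPM in any replicate.

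Psma8 and Psmb11 are core subunits known from single tissues. Psma8 (ENSMUSG00000036743), the alpha subunit of the testis proteasome that takes the place of Psma7, had 230, 142 and 107 counts and 6.26, 5.10 and 3.62 TPM. Per length it stood at 18.5% (95% exact Clopper-Pearson interval 15.9 to 21.5), 16% (13.1 to 19.3) and 11% (8.81 to 13.6) of Psma7. Its TMM-scaled CPM, where TMM is edgeR's scaling of library totals, was 19.2, 21.3 and 20.1. All 3 germ cell markers also had a mean above 1 TPM, with Dazl at 19.2, 13.0 and 11.8, Sycp3 at 3.16, 2.60 and 1.94 and Ddx4 at 1.17, 1.21 and 0.70 TPM. Their part in the Psma8 level was not tested, and in bulk RNA a few cells with much of a transcript cannot be told apart from many cells with little. Psmb11, the beta subunit of the thymus proteasome, had 0, 2 and 0 counts.

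In the base of the regulatory particle, the 6 ATPases spanned 26.0 to 60.6 TPM in their means. Psmc6 had 70.5, 60.8 and 50.7 TPM and Psmc1 60.9, 43.7 and 41.7 TPM, and both lay above the other 4 in every replicate. Psmc2, Psmc3, Psmc4 and Psmc5 had means between 26.0 ± 3.58 and 32.8 ± 3.89 TPM (SD, n = 3). Within a replicate the highest ATPase exceeded the lowest 2.36-, 2.68- and 1.98-fold, 2.34 ± 0.35 (SD, n = 3).

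The 11 non-ATPase subunits hold the ubiquitin receptors, the enzyme that removes ubiquitin and the scaffold. Psmd4, a ubiquitin receptor, had 68.3, 57.3 and 68.3 TPM. Psmd1 and Psmd2, the large scaffold subunits of the base, had 77.2, 50.6 and 53.9 TPM and 49.4, 45.5 and 40.6 TPM. The snoRNA gene Gm22786 lies within Psmd1 on its strand and had 103, 17.3 and 54.2 TPM, and its part in the Psmd1 values was not tested. Psmd14, the deubiquitinating enzyme of the lid, had 34.97, 29.6 and 24.3 TPM, and its partner Psmd7 47.3, 34.8 and 36.4 TPM. The remaining lid subunits Psmd3, Psmd6, Psmd8, Psmd11, Psmd12 and Psmd13 had means from 22.5 ± 5.86 TPM for Psmd3 to 47.0 ± 4.31 TPM for Psmd8 (SD, n = 3). Psmd3 at 28.6, 22.1 and 16.9 TPM was the lowest of the 17 regulatory genes taken by symbol in each replicate.

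Among the 17 regulatory genes taken by symbol, the highest exceeded the lowest 2.70-, 2.75- and 4.04-fold, 3.16 ± 0.76 (SD, n = 3). The regulatory subunits Adrm1 and Sem1, which the symbol rule leaves out, were lower, and with them the span was 6.0-, 4.86- and 7.30-fold, 6.06 ± 1.22 (SD, n = 3). With these 2 genes, added after their values were seen, the span overlapped the 5.77 to 6.61 of the core. The median of the core exceeded that of the regulatory particle by 0.10, 0.39 and 0.24 on the log2(TPM + 1) scale, 0.25 ± 0.15 (SD, n = 3), over the genes taken by symbol. It came to 0.38 ± 0.10 with means in place of medians and to 0.14 ± 0.12 in CPM (both SD, n = 3). The median ATPase minus the median non-ATPase was -0.54, -0.57 and -0.25, -0.45 ± 0.18 (SD, n = 3). This difference came to -0.14 ± 0.07 with means in place of medians and to -0.07 ± 0.08 in CPM (both SD, n = 3). No test was made between these lists, since the genes of a list are not replicates of it.

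In the order of the 31 constitutive genes, a gap separated the 3 highest from the rest, and most neighbours overlapped. Among their 465 pairs, 397 had the same order in every replicate and 321 had ranges that did not overlap. Among the 30 pairs of neighbours in the order of means, 6 kept their order in every replicate and 1, Psmb7 with Psmb2, had ranges that did not overlap. The 3 highest genes, Psma3, Psmb3 and Psmb7, had ranges that overlapped, though Psmb3 exceeded Psmb7 in every replicate. All 3 lay above the other 28 in every replicate.

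Psmd5, Psmd9 and Psmd10 encode chaperones that assemble the base and leave the finished particle. Psmd5 had 21.9, 17.5 and 20.9 TPM. Psmd9 had 3.13, 3.15 and 2.10 TPM and Psmd10 5.46, 4.73 and 4.47 TPM. Psmd9 and Psmd10 thus lay below every constitutive subunit in each replicate, while Psmd5 overlapped the lowest, Psmb5 and Psmd3. Psmc3ip, which the symbol rule takes, is a partner of meiotic recombinases and no proteasome subunit, and it had 5.12, 4.13 and 4.40 TPM.

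Among the activators, Psme1 and Psme2 form the interferon-inducible PA28 ring, Psme3 the nuclear PA28 ring and Psme4 the nuclear activator PA200. Psme4 had 42.9, 35.7 and 27.5 TPM and Psme3 37.7, 29.0 and 22.5 TPM. Psme1 had 31.6, 24.0 and 21.2 TPM, below Psme3 in each replicate. Its mean of 25.6 ± 5.35 TPM (SD, n = 3) was near that of the lowest ATPase, Psmc2, at 26.0 ± 3.58.

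Psme2 (ENSMUSG00000079197, chr14:55587441-55591113, minus strand) had 11.5, 6.19 and 19.5 TPM from 157, 95.8 and 113 counts. Its coefficient of variation was 54.1% in TPM and 19.2% in CPM. Its deposited length was 638, 962 and 435 nt in replicates 1, 2 and 3, a 2.21-fold range and the widest of the 45 genes. RSEM averages this length over a gene's transcripts by their estimated abundance in each library. The mean of Psme1 and Psme2 relative to Psme3 was -0.94, -1.16 and -0.14 on the log2(TPM + 1) scale, -0.74 ± 0.54 (SD, n = 3). With 1 mean length per gene it was -0.80 ± 0.27, and without replicate 3 it was -1.05 ± 0.16. In CPM it came to -2.98 ± 0.26 (SD, n = 3), where the deposited length of Psme3, 2516, 2463 and 2463 nt, does not enter. Psme2b, a duplicate that shares 69.3% of its 50-base words with other genes, had 10.9, 9.21 and 2.98 counts, and reads of Psme2 and Psme2b cannot be fully told apart.

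Variation between replicates was tested by the goodness of fit of edgeR across all 12577 genes that passed its filter on low counts. It called 232, 1.84%, beyond the trend at a Benjamini-Hochberg adjusted p under 0.05. Of the 41 proteasome genes that passed the filter, 0 were called and 1 had an unadjusted p under 0.05, beside 875 of all 12577; Psmb8, Psmb9, Psmb11 and Psme2b did not pass. With DESeq2 size factors 0 of 41 were called and 1 had an unadjusted p under 0.05, beside 878 of 12577. The gene with the smallest p was Psmd4, at 65.5, 78.2 and 113 TMM-scaled CPM (edgeR, adjusted p = 0.641). Psmc3 followed at 66.2, 71.3 and 106 TMM-scaled CPM (edgeR, adjusted p = 0.822). Without replicate 1, 2 or 3 the test called 89, 63 and 93 of all genes and 0 of the proteasome genes. A result of 0 of 41 does not set these genes apart from the 1.84% over all genes. On simulated data the test recovered 1 of 50 genes changed 2-fold in 1 replicate, so it seldom sees changes of that size.

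Within each library most constitutive genes deviated in the same direction. Their median deviation from each gene's own mean, in log2 TMM-scaled CPM, was -0.162, -0.042 and 0.211 in replicates 1, 2 and 3, beside 0.003, 0.008 and 0.002 over all genes tested. In replicate 3, 29 of 31 lay above their own mean, and in replicates 1 and 2 this held for 2 and 8, while it held for 50.7%, 52.6% and 50.3% of all genes tested. Their median length was 1169 nt, beside 2248 nt over all genes tested. After a smooth correction for length their medians were -0.099, -0.030 and 0.163, and 27 of 31 lay above their own mean in replicate 3. TPM, which is scaled over all genes, gave the opposite order, since 28 of the 31 had their highest TPM in replicate 1 and 3 of the 31 their highest CPM there. Nuclear protein-coding genes held 19.5%, 16.2% and 14.8% of all TPM in replicates 1, 2 and 3. Of the TPM of nuclear protein-coding genes alone, the constitutive subunits held 0.856%, 0.882% and 0.909%, the same order as the CPM deviations.

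**Figure D3:**
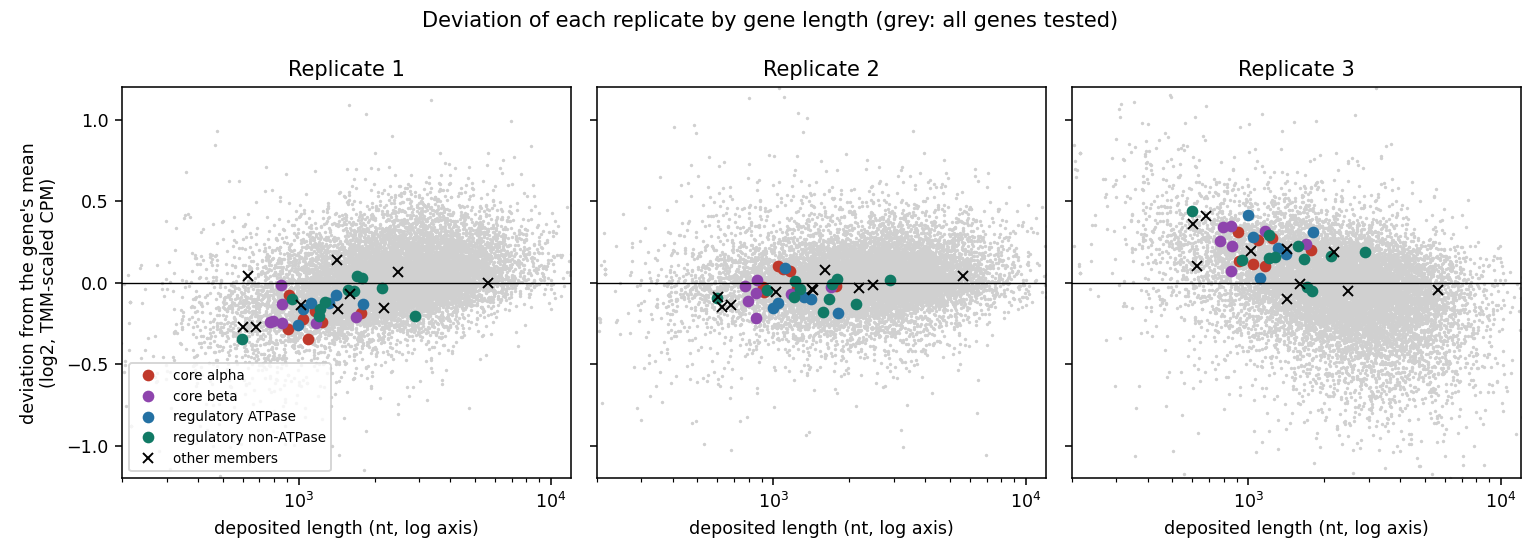
Log2 TMM-scaled CPM in each library less the mean of the same gene, against the deposited length (nt, log axis) in replicates 1, 2 and 3; grey points are all genes tested and coloured points or crosses the proteasome genes, and genes beyond the axis limits are not drawn. The constitutive genes have a median of -0.162 in replicate 1 and of 0.211 in replicate 3, on the short side of the length axis.

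Promoter windows were read from RefSeq (GRCm38.p6) as windows of 250 bases before to 50 after each start. Windows were found for 38 of the 45 genes and for 25 of the 31 constitutive subunits; Psma8, Psmb1, Psmb2, Psmb7, Psmc3, Psmd3 and Psmd7 were not matched. The letters CCGGAAG, a site of ETS factors, were found on either strand in 10 of the 25, beside 9.93% of all 27025 genes and 23.6% of 7710 expressed protein-coding genes. They were in 9 of 14 regulatory subunits and in 1 of 11 core subunits. The match nearest to a start, with 10 bases on each side, is printed for the 10 genes, 5′ to 3′ on the strand of the gene, with the match in capitals, because this motif had the widest gap to its background of those searched. Of these matches 5 read CCGGAAG and 5 the reverse complement, and those of Psma6 and Psmc2 lie at the second of 2 annotated starts.
Psma6 chr12:55398813-55398839 (plus strand): cgccggtgctCCGGAAGcagtagccat
Psmc1 chr12:100110164-100110190 (plus strand): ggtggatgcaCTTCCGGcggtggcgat
Psmc2 chr5:21786713-21786739 (plus strand): cgcggagctaCTTCCGGtggggaagag
Psmc6 chr14:45329714-45329740 (plus strand): ggcgggccagCCGGAAGgggcggagcc
Psmd11 chr11:80428594-80428620 (plus strand): gagggcgggtCTTCCGGgtgtgtgttt
Psmd12 chr11:107479501-107479527 (plus strand): gagcgggcgaCTTCCGGtgcgagtgac
Psmd13 chr7:140882378-140882404 (plus strand): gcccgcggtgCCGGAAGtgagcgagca
Psmd2 chr16:20651616-20651642 (plus strand): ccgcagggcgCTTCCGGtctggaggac
Psmd4 chr3:95042723-95042749 (minus strand): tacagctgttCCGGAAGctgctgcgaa
Psmd6 chr14:14120974-14121000 (minus strand): agagacgcgaCCGGAAGtcagactggc

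The next 2 motifs were near their background. The letters TGACNNNGC, the core of the antioxidant response element bound by the Nfe2l1 factor that induces proteasome genes, were in 4 of the 25 constitutive windows, beside 14% of all genes and 17% of expressed protein-coding genes. The letters CCAAT, bound by NF-Y, were in 10 beside 41.1% and 44.9%, with 4 of 14 regulatory and 6 of 11 core subunits. The letters GAAANNGAA, the core of interferon response sites, were in 4 beside 9.76% and 7.73%, and TATAAA in 3 beside 15.7% and 7.64%. The letters TGACNNNGC, GAAANNGAA and TATAAA were in 2, 2 and 2 of the 14 regulatory and in 2, 2 and 1 of the 11 core subunits. All were searched on both strands, and no searched motif contains another. A match describes letters and shows no binding, and no test was made of these shares. The 4 constitutive genes with TGACNNNGC were Psmb5, Psmb6, Psmc6 and Psmd12. The stretch upstream of Psmb5 is printed 5′ to 3′ on the strand of the gene, as the catalytic gene of lowest level, with the match in capitals.
Psmb5 chr14:54618023-54618172 (minus strand): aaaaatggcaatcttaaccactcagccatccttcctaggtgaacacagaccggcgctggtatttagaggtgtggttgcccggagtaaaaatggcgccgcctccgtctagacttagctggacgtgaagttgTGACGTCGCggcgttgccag

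Some of these starts lie close to that of another gene. For 14 of the 45 genes a gene on the opposite strand starts within 1000 bp, and for 11 of them it is protein-coding. The neighbour had a mean TPM of at least 1 for 7. The same shares were not computed over all genes, so these counts do not show whether such starts are particular to proteasome genes. Psmc2 starts 32 bp from Dnajc2, a ribosome-associated chaperone gene at 17.2 ± 1.28 TPM. Psmc5 starts 75 bp from Ftsj3, a ribosome assembly gene at 22.6 ± 2.64 TPM, and Psma2 75 bp from Mrpl32, a mitochondrial ribosomal protein gene at 10.1 ± 0.34 TPM (SD, n = 3). Psmb1 starts 137 bp from Tbp, the TATA-binding protein gene, at 14.2 ± 3.25 TPM (SD, n = 3). The remaining 3 were Psmd10 with Atg4a, Psmd13 with Sirt3 and Psme2 with Rnf31, whose neighbours had 1.39, 3.32 and 4.30 TPM on average. In each of these 7 pairs the proteasome gene had the higher mean. This says little about such pairs, since 34 of the 45 genes had a mean of at least 20 TPM, beside 6.64% of all protein-coding genes. The libraries were directional, but whether the counting used strand is not given in the sources used here, so reads of overlapping genes on opposite strands may not have been separated. A gene of at least 1 TPM overlapped 7 of the 45, on the same strand for 3, and the share over all genes was not computed here either.

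The genes that build, regulate and supply the proteasome were expressed as well. All 32 listed genes found in the annotation had a mean TPM of at least 1, beside 44.1% of all protein-coding genes. Paaf1, also listed, was not matched. Among the assembly factors of the core, Pomp, which guides the beta rings, had 55.3, 40.4 and 32.1 TPM and Psmg1 36.8, 26.0 and 25.5 TPM, while Psmg3 had 1.88, 1.27 and 1.73 TPM. The subunits that the symbol rule does not take, the ubiquitin receptor Adrm1 and the small lid subunit Sem1, had 18.5, 12.5 and 13.7 TPM and 12.9, 13.7 and 9.35 TPM. Both lay below each of the 31 constitutive subunits taken by symbol within each replicate.

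The regulators spanned a wide range. Nfe2l1, which raises proteasome genes when the particle is inhibited, had 39.3, 32.3 and 31.5 TPM, and its relative Nfe2l2 16.5, 11.01 and 8.35 TPM. Ddi2 and Ngly1, which process Nfe2l1 to its active form, had means of 5.62 ± 1.68 and 1.43 ± 0.42 TPM (SD, n = 3). Psmf1, an inhibitor of the core, had 4.93, 4.15 and 3.22 TPM. Uba1, the enzyme that activates ubiquitin, had a mean of 49.9 ± 17.2 TPM, and Vcp, the ATPase that extracts ubiquitinated proteins, 40.8 ± 9.22 TPM (SD, n = 3). Both lay among the constitutive subunits.

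**Figure D4:**
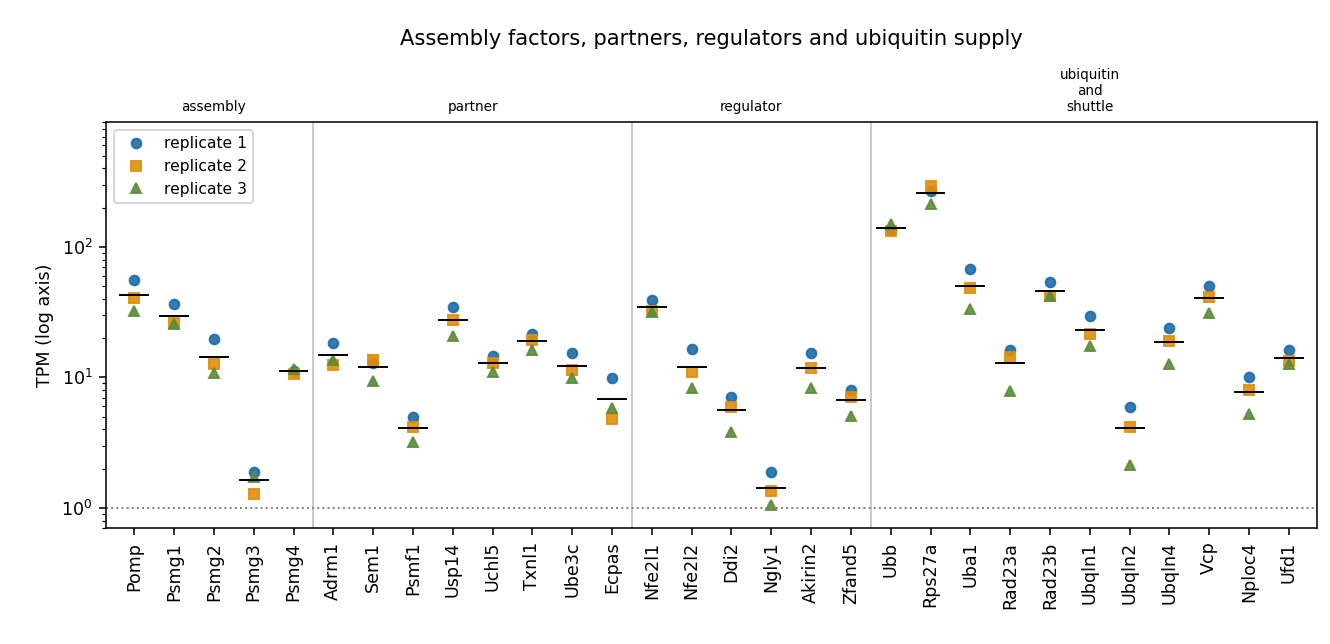
TPM (log axis) of 30 of the 32 other genes of the pathway in each RNA-seq replicate, grouped as assembly factors, partners, regulators, and ubiquitin genes with shuttles; black bars are means and the dotted line marks 1 TPM. The lowest mean drawn is 1.43 TPM for Ngly1, and the regulator Nfe2l1 lies at 31.5 to 39.3 TPM.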

How the data were processed

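Per the labels' protocols, Trizol RNA of E14 cells underwent DNase treatment and removal of ribosomal RNA before directional libraries were prepared. The submitters' processing notes name STAR, RSEM, Bowtie2, SAMtools and deepTools and the build mm10, without versions or roles. The file headers are those of RSEM gene tables. The authors deposited estimated counts (expected counts), in which a read matching several genes is divided among them, and TPM, scaled by effective length. FPKM, deposited in the same tables per the file headers, was left unused. Samples were grouped by their titles, and 7 of 10 samples were not analysed here.

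Gene IDs were matched to GENCODE vM21 (GRCm38), 55227 of 55487. Levels are the deposited TPM, compared on the log2(TPM + 1) scale. Counts were rounded for edgeR 4.0.16 in R 4.3.3 (TMM, filterByExpr, trended dispersion, goodness of fit, Benjamini-Hochberg adjustment). On simulated data for variability between the 3 replicates, 1, 41, 40 and 34 of 50 genes changed in 1 replicate by 2-, 4-, 8- and 16-fold were recovered, with 1 false call among 12295 genes. Words of 50 bases were compared over all vM21 transcripts. Pair ratios are per effective length, with 95% exact Clopper-Pearson intervals. Other steps used Python 3.11.15, pandas 2.3.3 and scipy 1.17.1. Alternatives covered the pseudocount (0.1), CPM, the denominator, the statistic, shared sequence, DESeq2 1.42.0 size factors, filters, dispersion, a length correction and leaving out each replicate.

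The genes named are all members, the listed pathway, antigen presentation and marker genes, overlapping or head-to-head neighbours and pseudogenes that share sequence; some listed genes are not reported here. The members and lists were chosen with earlier results of these data known.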

Additional observations from a re-analysis of the deposited data

How the results depend on the processing

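Across 11 results and 84 alternatives (73 planned, 11 added after seeing the data), 67 values stayed within 1 SD of the replicates or 1.5 times a count, 17 moved further and 0 changed sign. Only the differences could change sign, since the median level, the spread, the share and the counts of genes stay at or above 0. Leaving out each replicate moved no result beyond these limits. For the results averaged over replicates this was fixed in advance, since leaving out 1 of 3 values moves a mean by less than 1 SD. In CPM, without length scaling, the median constitutive level was 6.93, the spread over the core 0.75, alpha minus beta -0.21, ATPase minus non-ATPase -0.07, the immunoproteasome pairs -5.87 and PA28 alpha and beta minus gamma -2.98 (log2). With nuclear protein-coding genes as the denominator the median was 7.91 and the immunoproteasome pairs -6.38. Means in place of medians gave -0.40 for alpha minus beta and -0.14 for ATPase minus non-ATPase. The immunoproteasome pairs came to -6.74 with a pseudocount of 0.1, to -5.04 with pseudogene counts added and to -4.75 with members of at most 3 counts set to 3. The spread over the core was 0.75 with pseudogene counts added and 0.51 over genes that share under 5% of their 50-base words. The constitutive share was 0.613% in estimated counts and 0.148% over all genes. The cause of these shifts was not tested beyond the construction of each alternative. Depth limits Psmb8, Psmb9 and Psmb11, at 0 to 3 counts a library, and the variability test seldom recovers a 2-fold change. No paired analysis was possible because there is 1 group with files.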
